A study of Mus musculus with 45 samples.

Results

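Mouse embryonic stem cells that had received retinoic acid (RA) and BMP4 together were compared 4 days after the factors had been withdrawn with sister cultures taken 2 days earlier. The comparison set the 3 libraries of day 9 (M9) against the 3 libraries of day 7 (M7), 6 of the 45 libraries of the series, picked out by the time and treatment in their sample labels, a rule that uses no measured value. The series followed adherent cultures from undifferentiated stem cells to day 9 along a course toward spinal sensory interneurons, in 15 groups of 3 from 3 independent differentiations, per the series' design text. All cultures passed through basic FGF and the WNT activator CHIR for the first 2 days, which the labels say directs neuromesodermal progenitors (NMPs). Both M groups then had 100 nM RA with 10 ng/ml BMP4 for 48 h, from day 3 to day 5. The comparison treatments were RA alone at 100 nM for 48 h (R7 and R9) and RA alone for 24 h followed by RA with 10 ng/ml BMP4 for 24 h (B7 and B9). The labels give the end of the R treatment as day 4 in one place although 48 h from day 3 ends on day 5, they name the combined arm C in the protocol and M in the sample names, and they give the cell type of every culture as mESCs. No line name, clone or passage was stated.

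RA and BMP4 are signals that pattern the neural tube along its length and from back to belly, and BMP4 also directs early mesoderm to lateral plate, heart, vessel and blood fates. Primitive red cells of the embryo carry embryonic globins, early heart muscle carries its own troponins, myosin light chains and natriuretic peptides, and smooth muscle carries a set of actins, calponin and smooth muscle myosin. Dorsal and intermediate spinal interneurons are marked by LIM and other homeodomain factors, and maturing neurons add ion channels and transmitter receptors.

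The values are the authors' normalized levels, 1 per gene and library, for 11220 genes, and their unit is not stated. They are not divided by gene length, so levels were compared between libraries and not between genes. Values of 3 libraries are given in the order of replicates 1, 2 and 3. A change is the difference of the group means of log2(level + 1), which understates the change of a gene at a low level. A gene was called, and is said to have risen or fallen, where limma's moderated test gave an adjusted p under 0.05 over all 11220 genes. Listed levels summed to between 13959544 and 15228260 in the 6 libraries and to between 12245725 and 15868724 in the others, and the read depth of each library is unknown. Across genes, the correlation of log2 levels was 0.989 to 0.990 between M9 libraries, 0.968 to 0.988 between M7 libraries and 0.966 to 0.981 between the groups. Replicate 1 of day 7 stood apart from the other 2 day 7 libraries: the SD of its deviations from the group mean was 0.438, against 0.262 and 0.372. Its Hoxb9, a posterior homeobox gene, was at 647 against 3077 and 5485, and its Pou5f1, a pluripotency factor, at 1965 against 331 and 529. Without it, 38 of the 109 genes named or looked up lost their call. Results without it are given for several lists and for some genes. For most other called genes that are described, the number of leave-out fits that passed is given. The highest adjusted p among those fits may come from leaving out another library. Pou5f1 lay between 236 and 474 at day 9, below every undifferentiated library of the series (2678 to 22336), so the label mESCs describes where the cultures came from. Tubb3, a neuronal tubulin, lay between 292 and 577 at day 9 and Stmn2, a neuronal microtubule regulator, between 402 and 816, against 5293 to 5700 and 2585 to 3845 in B9.

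Between day 7 and day 9, 449 genes were called, 4.00% of those tested. Of these, 269 had risen (2.40%) and 180 had fallen (1.60%), and 138 and 81 of them by 2-fold or more. An unadjusted p under 0.05 was found for 1906 of the 11220 genes. The 3 day 9 libraries lay wholly above or wholly below the 3 day 7 libraries for 2659 genes (23.7%), among them 440 of the 449 called. Embryonic globins and heart muscle genes were among the largest falls, and Lhx1, Il33, Krt15 and Eln among the largest rises. The test took its spread from all 45 libraries. Replicate numbers of day 7 and day 9 were taken to pair these libraries, from the data and not from the labels. With the replicate as a block and the 6 libraries alone 414 genes were called (3.69%), 186 higher (1.66%) and 228 lower (2.03%), of which 195 were also called in the main test. Without the block the 6 libraries alone gave 168 genes (1.50%), 76 higher (0.677%) and 92 lower (0.820%). Leaving out replicate 1 of day 7 gave 211 genes, 110 higher and 101 lower, leaving out replicate 1 of day 9 gave 193, and leaving out replicate 2 or 3 of day 9 gave 280 or 234. In all 6 such fits 114 genes were called.

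**Figure D1:**
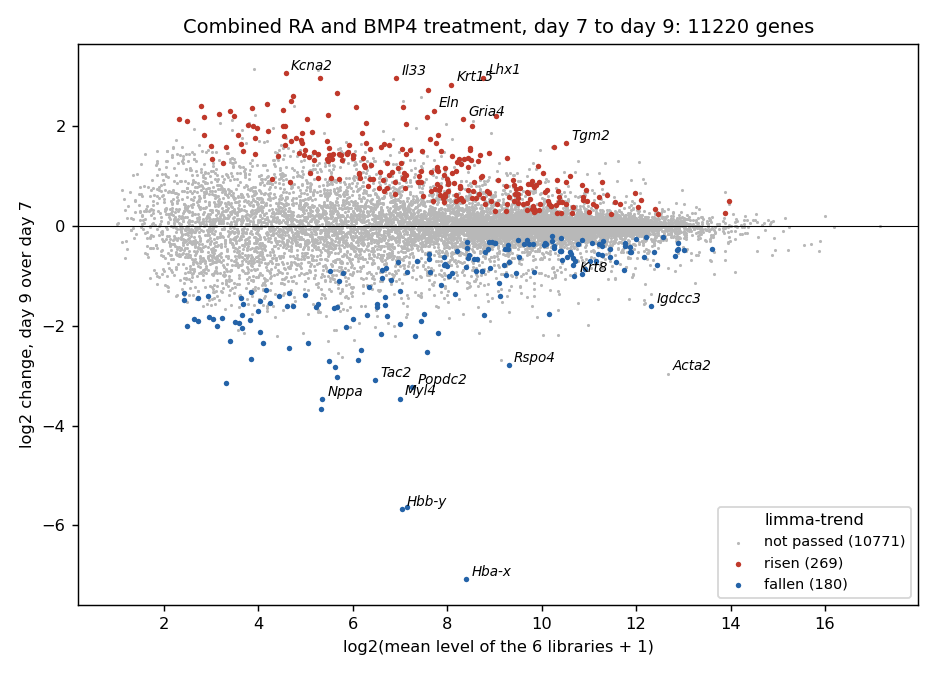
Log2 change from day 7 to day 9 (vertical axis) against log2 of the mean level of the 6 libraries plus 1 (horizontal axis), 1 point per gene. The 269 risen genes (red) and 180 fallen genes (blue) lie on both sides of 0, and Hba-x has the lowest point at -7.08.

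Embryonic globin genes fell further than any other called gene. Hba-x, the zeta-like embryonic alpha globin on chromosome 11 (chr11:32276400-32278116 on mm10), had levels of 418, 1559 and 51.7 at day 7 and 1.18, 1.86 and 1.25 at day 9. The day 7 libraries differed widely among themselves, with replicate 3 lowest, and all 3 still lay above every day 9 library. Its log2 change was -7.08 ± 0.92 (SE), with an adjusted p of 1.1e-05. Hbb-y, an embryonic beta-like globin, had levels of 228, 545 and 7.15 at day 7 and 0.856, 1.28 and 0.806 at day 9 (log2 change -5.68, adjusted p 9.0e-05). Hbb-bh1, the neighbouring embryonic beta-like globin, had levels of 225, 599 and 13.1 at day 7 and 1.37, 1.74 and 1.41 at day 9 (log2 change -5.63, adjusted p 1.8e-04). In both, as in Hba-x, replicate 2 was the highest of day 7 and replicate 3 the lowest, and the groups did not overlap. Globin genes are near copies of one another, and how the authors' counting shared reads among them is not stated. The red cell membrane anion exchanger Slc4a1 fell as well, from 96.0, 122 and 8.86 to 2.33, 2.06 and 4.60 (log2 change -3.67, adjusted p 3.9e-04). With the replicate block, the adjusted p was 0.057 for Hbb-y and 0.095 for Slc4a1, both outside the threshold, and 0.028 for Hba-x and 0.049 for Hbb-bh1. The blood and macrophage list had 3 of its 8 members fallen, the 3 globins (against 1.60% of all genes), with a median log2 change of -1.28 against 0.00 over all genes. Its summed level was 571 to 3296 at day 7 and 530 to 623 at day 9. Each of the 4 genes also passed with any 1 of the 6 libraries left out. These are bulk cultures, in which fewer cells of a type and less RNA per cell cannot be told apart.

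For the globins and for the muscle genes described next, 250 bases before the RefSeq start are shown for 4 genes, since most members of each group had lower levels at day 9. The sequences are from RefSeq on GRCm38.p6, read 5′ to 3′ along the gene. RefSeq's start is not that of the GENCODE genes whose coordinates are given here: 200 of the 250 bases of Hba-x, all 250 of Actc1, 44 of Myl9 and 9 of Hbb-y lie inside the GENCODE gene. Promoters were found for 2 of the 3 globins, for 17 of the 18 heart muscle genes and for 14 of the 19 smooth muscle genes. Capitals mark a CArG box, the sequence bound by serum response factor, in Actc1 and Myl9, a TATAAA match in Hba-x and a CCAAT match in Hbb-y.
Hba-x promoter, chr11:32276350-32276599, plus strand: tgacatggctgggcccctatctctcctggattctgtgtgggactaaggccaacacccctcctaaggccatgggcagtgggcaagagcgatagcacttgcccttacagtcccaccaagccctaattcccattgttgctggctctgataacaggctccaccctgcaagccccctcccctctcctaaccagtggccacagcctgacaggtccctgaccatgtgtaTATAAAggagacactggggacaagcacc
Hbb-y promoter, chr7:103853208-103853457, minus strand: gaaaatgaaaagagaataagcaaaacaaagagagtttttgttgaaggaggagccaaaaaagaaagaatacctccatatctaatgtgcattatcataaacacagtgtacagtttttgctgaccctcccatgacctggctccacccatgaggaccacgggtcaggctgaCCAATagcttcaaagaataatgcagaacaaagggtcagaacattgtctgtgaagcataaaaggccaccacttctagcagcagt
Actc1 promoter, chr2:114052876-114053125, minus strand: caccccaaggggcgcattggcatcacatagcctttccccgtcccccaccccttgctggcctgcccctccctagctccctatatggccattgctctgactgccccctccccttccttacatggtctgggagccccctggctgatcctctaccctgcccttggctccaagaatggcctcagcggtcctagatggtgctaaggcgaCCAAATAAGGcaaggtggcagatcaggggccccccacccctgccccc
Myl9 promoter, chr2:156775214-156775463, plus strand: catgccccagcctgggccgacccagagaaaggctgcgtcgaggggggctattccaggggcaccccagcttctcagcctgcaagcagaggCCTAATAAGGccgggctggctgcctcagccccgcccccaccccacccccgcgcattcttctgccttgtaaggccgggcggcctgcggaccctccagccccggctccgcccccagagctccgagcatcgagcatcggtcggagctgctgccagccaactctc
The TATAAA of Hba-x began 28 bases before its start, and this sequence was in 13.6% of 32851 promoters of 300 bases, searched on both strands. The CCAAT of Hbb-y began 83 bases before its start, and was in 37.4% of promoters. Neither globin promoter held AGATAA (in 11.2% of all promoters) or CCACACCC (in 3.56%), which says only that these letters were not in the window of 300 bases. A CArG box began 47 bases before the start of Actc1 and 161 bases before that of Myl9, on either strand since the box reads alike on both. It was present in 3 of 17 heart muscle promoters (Myl3, Myl7 and Actc1) and in 2 of 14 smooth muscle promoters (Cnn2 and Myl9), against 1.63% of all promoters. Only the exact letters CCWWWWWWGG, where W is A or T, were counted, and variants of the box were not searched. A promoter without a match, such as that of Acta2, therefore lacked only these exact letters in the window. A match is a description of the letters and was not tested as a binding site. Srf, which encodes serum response factor and was looked up after the values were seen, had levels of 4236, 3777 and 3643 at day 7 and 3031, 3231 and 2983 at day 9, a log2 change of -0.33 with an adjusted p of 0.024, or 0.094 with the replicate block.

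Several heart muscle genes fell. Of 18 listed cardiac contractile genes in the table, 7 fell (38.9%, against 1.60% of all genes) and none rose, with a median log2 change of -1.41. The day 9 libraries lay below the day 7 libraries for 11 of the 18, against 12.4% of all genes. Nppa, the atrial natriuretic peptide (chr4:148000722-148002079), had levels of 73.0, 62.5 and 87.5 at day 7 and 4.84, 7.22 and 5.39 at day 9, so that the highest day 9 library was below the lowest day 7 library. Its log2 change was -3.47 ± 0.60 (SE), adjusted p 5.0e-04. Myl4, the atrial and embryonic essential myosin light chain, had levels of 243, 241 and 209 at day 7 and 14.3, 14.6 and 38.0 at day 9 (log2 change -3.46, adjusted p 2.8e-04). Its day 7 values were close together and replicate 3 was the highest at day 9. Ryr2, the calcium release channel of the heart muscle store, had levels of 231, 138 and 126 at day 7 and 38.6, 47.9 and 48.6 at day 9 (log2 change -1.80, adjusted p 3.4e-05). The thin filament genes Tnnt2 and Tnni1, which encode troponins T and I, changed by -2.68 and -1.96 on the log2 scale, and the cardiac actin Actc1 by -1.90. The natriuretic peptide gene Nppb changed by -2.05, from 26.8, 19.7 and 11.7 to 3.45, 5.15 and 2.73.

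Outside the list, Popdc2, a membrane protein of heart and skeletal muscle, had levels of 260, 296 and 274 at day 7 and 18.5, 41.4 and 30.3 at day 9 (log2 change -3.23, adjusted p 3.8e-04). Unc45b, a chaperone for striated muscle myosin, had levels of 462, 253 and 257 at day 7 and 47.5, 59.8 and 53.7 at day 9 (log2 change -2.52). Of 15 skeletal muscle genes 1 fell, the skeletal actin Acta1, and 1 rose (against 1.60% and 2.40% of all genes). Acta1 went from 92.4, 129 and 138 to 9.86, 21.0 and 38.8 (log2 change -2.49). Popdc2, Unc45b and Acta1 each had groups that did not overlap. Coding sequences of Actc1, Acta1 and Acta2 are alike, and how reads were shared among them is not stated. Factors that specify this tissue were not called: 0 of 19 lateral and cardiac mesoderm factors passed in either direction, against 4.00% of all genes. An unadjusted p under 0.05 in limma's test was found for 1 of the 19, against 1906 of all 11220 genes. With the block 3 of the 19 fell, against 2.03% of all genes. Gata4, a cardiac and endodermal zinc finger factor, had levels of 3687, 4769 and 3720 at day 7 and 1339, 2574 and 2046 at day 9 (adjusted p 0.36, or 0.029 with the block). Hand1, a helix-loop-helix factor of lateral mesoderm, had levels of 1168, 1148 and 942 at day 7 and 500, 473 and 326 at day 9 (adjusted p 0.50, or 0.020 with the block). Both had day 9 libraries below all day 7 libraries. Each of the 6 fits with 1 library left out kept an adjusted p under 0.05 for Nppa, Myl4, Ryr2, Popdc2, Unc45b and Acta1. The number of these 6 fits that passed was 1 for Tnnt2 (highest adjusted p 0.16, without day 9 replicate 1), 2 for Tnni1 (highest adjusted p 0.16, without day 9 replicate 1), 4 for Actc1 (highest adjusted p 0.083, without day 9 replicate 1) and 1 for Nppb (highest adjusted p 0.16, without day 7 replicate 1). Without replicate 1 of day 7, 5 of the 18 heart muscle genes fell, with a median of -1.32, and without replicate 1 of day 9, 3 fell, with a median of -1.14.

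Most smooth muscle genes had lower levels at day 9, but none passed the main test. The day 9 libraries lay below the day 7 libraries for 13 of the 19 listed genes, against 12.4% of all genes, and for none did they lie above. The median log2 change was -0.84, and 0 of the 19 were called, although 10 had an unadjusted p under 0.05 in limma's test. Of all 11220 genes, 4.00% were called and 1906 had an unadjusted p under 0.05. Acta2, smooth muscle actin (chr19:34241090-34255590), had levels of 13384, 9091 and 11907 at day 7 and 860, 2168 and 1633 at day 9. The smallest day 7 value was above the largest day 9 value, and the log2 change was -2.96 ± 1.02 (SE), with an adjusted p of 0.097. With the 6 libraries alone it was 0.025, and with the replicate block 0.026. Actg2, the enteric smooth muscle actin, had levels of 1021, 764 and 1101 at day 7 and 80.3, 209 and 185 at day 9 (adjusted p 0.16, or 0.029 with the block). Cnn1, calponin 1, had levels of 1240, 845 and 818 at day 7 and 234, 375 and 265 at day 9 (adjusted p 0.053, or 0.034 with the block). Myh11, smooth muscle myosin heavy chain, had levels of 531, 312 and 393 at day 7 and 92.1, 146 and 103 at day 9 (adjusted p 0.054, or 0.039 with the block). These 3 genes had groups that did not overlap, with replicate 1 lowest at day 9 in each. Tagln, an actin-binding protein of smooth muscle, had levels of 8470, 5995 and 5883 at day 7 and 1505, 3385 and 2256 at day 9 and an adjusted p of 0.33, or 0.056 with the block. Myl9, the regulatory myosin light chain whose promoter is shown above, had levels of 2009, 1794 and 1852 at day 7 and 565, 946 and 722 at day 9 and an adjusted p of 0.070, or 0.029 with the block. Over the list, 6 genes passed as lower with the 6 libraries alone (0.820% of all genes) and 7 with the block (2.03%). The listed levels of the smooth muscle genes summed to 76346 to 85766 at day 7 and 37994 to 59653 at day 9.

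**Figure D2:**
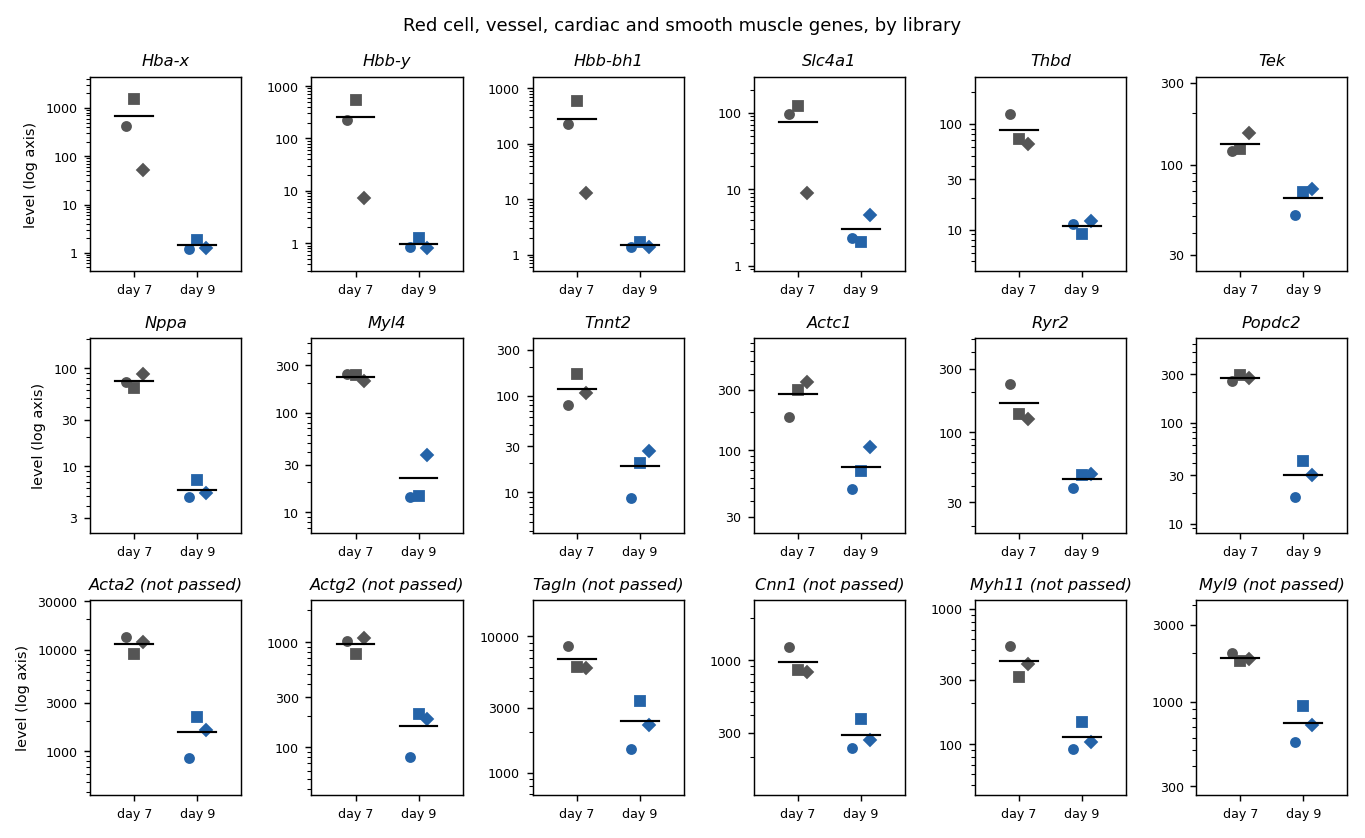
Level (log axis) of 18 red cell, vessel, heart and smooth muscle genes at day 7 (grey) and day 9 (blue), 1 point per library (circle, square and diamond for replicates 1, 2 and 3) and a bar at the arithmetic mean. In every panel the 3 day 9 points lie below the 3 day 7 points, including the 6 smooth muscle genes marked as not passed.

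Thbd, Stab2 and Gpr182, genes of vessel lining outside the fixed list, fell. Of 19 endothelial genes 1 fell (5.26%, against 1.60% of all genes), and 0 did with any 1 of the 6 libraries left out. It was the angiopoietin receptor Tek, with levels of 120, 123 and 154 at day 7 and 50.7, 69.5 and 72.5 at day 9 (log2 change -1.04, adjusted p 0.032, or 0.055 with the block). The list's median was -0.73, or -0.42 without replicate 2 of day 9, and 6 of its 19 genes had day 9 libraries below all day 7 libraries, against 12.4% of all genes. Thbd, thrombomodulin of the vessel surface, had levels of 123, 72.0 and 65.1 at day 7 and 11.3, 9.18 and 12.1 at day 9, with no overlap, and a log2 change of -2.83 ± 0.45 (SE) (adjusted p 2.1e-04). Of genes named after their values were seen, the scavenger receptor Stab2 went from 32.4, 24.2 and 21.0 to 6.33, 3.21 and 6.16 and the endothelial receptor Gpr182 from 21.2, 13.8 and 15.6 to 1.22, 0.634 and 1.13. Their log2 changes were -2.13 and -3.15 (adjusted p 0.0022 and 4.3e-06). Pecam1 and Cdh5, 2 defining markers of endothelium, did not pass, with levels of 396, 200 and 308 at day 7 and 232, 68.0 and 204 at day 9 for Pecam1 and 106, 278 and 470 at day 7 and 170, 141 and 192 at day 9 for Cdh5, both with overlapping groups. The 6 fits that each left out 1 library all kept an adjusted p under 0.05 for Thbd, Stab2 and Gpr182. Among the 6 leave-out fits the number that passed was 0 for Tek (highest adjusted p 0.17, without day 9 replicate 1).

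A few interneuron factors changed. Of 18 factors of the dI4 to dI6 spinal interneurons, 2 rose and 1 fell (against 2.40% and 1.60% of all genes), with a median of 0.60. Without replicate 1 of day 7, 0 rose and 1 fell and the median was 0.27, and without replicate 1 of day 9, 0 were called. Lhx1, a LIM homeodomain factor of dI2, dI4 and dI6 and of intermediate mesoderm (chr11:84518284-84525535), had levels of 20.9, 174 and 208 at day 7 and 808, 698 and 680 at day 9. Replicate 1 of day 7 was the lowest of the 6, and the day 9 libraries were close together and above all of day 7. Its log2 change was 2.97 ± 0.76 (SE), with an adjusted p of 0.021, 0.084 with the block and 0.22 without replicate 1 of day 7. Dbx2, a progenitor homeodomain factor, rose from 1.32, 1.52 and 4.22 to 8.44, 12.7 and 9.62 (adjusted p 0.024, or 0.079 with the block). Lmx1b, a LIM factor of dI5 and of the roof plate, fell from 60.2, 184 and 171 to 31.1, 40.5 and 55.4 (adjusted p 0.026, or 0.052 with the block). Pan-neuronal genes had a median of 0.58, or 0.23 without replicate 1 of day 7 and 0.88 without replicate 3 of day 7, and 24 of 28 were above 0, but 0 of the 28 were called (6 at an unadjusted p under 0.05, 0 with the block) and 1 had groups that did not overlap. Of all 11220 genes, 4.00% were called, 3.69% with the block, 1906 had an unadjusted p under 0.05 and 23.7% did not overlap. The summed level of the pan-neuronal genes was 4965 to 14764 at day 7 and 7582 to 11446 at day 9. Tubb3, 1 of the 4 members below 0, had a mean level of 968 at day 7 and 434 at day 9. Its log2 change was -1.02, with an adjusted p of 0.62, or 0.055 with the block. Of 16 neural progenitor genes and 15 proneural genes, 0 were called, and 2 of each list had an unadjusted p under 0.05.

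Several channel and receptor genes of neurons rose. Among 26 ion channel and synapse genes, 4 rose, Kcna2 and Gria4 among them, and 1 fell (Cacna2d2), 19.2% against 4.00% of all genes, with a median of 0.31. Without replicate 1 of day 7, 3 rose and 1 fell and the median was 0.04, and without replicate 3 of day 7 it was 0.63. Gria4, an AMPA-type glutamate receptor subunit (chr9:4417896-4796234), had levels of 86.7, 130 and 146 at day 7 and 513, 567 and 499 at day 9, 4.35-fold higher in the mean. The groups were far apart beside the spread within each, and the log2 change was 2.14 ± 0.24 (SE) with an adjusted p of 1.3e-06. Kcna2, a delayed rectifier potassium channel, had levels of 4.38, 1.84 and 6.97 at day 7 and 56.4, 29.3 and 39.3 at day 9 (log2 change 3.06, adjusted p 2.1e-04). Cacna2d2, an auxiliary calcium channel subunit, had levels of 642, 1106 and 688 at day 7 and 411, 382 and 393 at day 9 (log2 change -0.99, adjusted p 0.0014, or 0.054 with the block). GABA-A receptor subunits and potassium channels were counted by symbol after the values were seen. Of 15 GABA-A subunits 4 rose, Gabra3 and Gabra4 among them, and 0 fell, and of 72 potassium channel genes 8 rose and 2 fell (against 2.40% and 1.60% of all genes). Gabra4 had levels of 60.8, 92.3 and 71.1 at day 7 and 167, 220 and 223 at day 9 (log2 change 1.44, adjusted p 3.7e-04), with no overlap.

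Further neural genes among the largest rises were Epha5, an ephrin receptor of axon guidance, from 12.4, 43.7 and 105 to 231, 166 and 234, Ptprz1, a receptor phosphatase of neural progenitors and glia, from 60.0, 143 and 305 to 590, 605 and 491, and Reln, a secreted guide of neuronal migration, from 55.3, 94.7 and 165 to 382, 299 and 352. Day 9 libraries were above all day 7 libraries in each, and replicate 1 of day 7 was the lowest. Their log2 changes were 2.39, 2.01 and 1.83 (adjusted p 0.021, 0.017 and 0.0073). With the block the adjusted p was 0.088 for Epha5, 0.085 for Ptprz1 and 0.050 for Reln, just under the threshold. Gpm6a, a membrane glycoprotein of neurons, rose from 103, 273 and 182 to 461, 879 and 1238 (log2 change 2.20). It is also a listed gene of mesothelium and epicardium, and was the 1 member of those 14 that rose (2.40% of all genes rose). Trh, the precursor of thyrotropin-releasing hormone, rose from 88.3, 43.6 and 80.0 to 326, 262 and 346 (log2 change 2.18). Tac2, a tachykinin neuropeptide precursor, went the other way, with levels of 154, 170 and 150 at day 7 and 12.5, 18.5 and 24.0 at day 9 (log2 change -3.09, adjusted p 1.2e-04). Pnmt, the enzyme that makes adrenaline, fell from 87.0, 81.1 and 63.3 to 7.86, 9.62 and 17.1 (log2 change -2.70). Slc18a3, the vesicular acetylcholine transporter, rose from 5.19, 8.50 and 12.3 to 47.1, 30.7 and 32.6 (adjusted p 0.014, or 0.057 with the block). Leaving out each of the 6 libraries in turn kept an adjusted p under 0.05 for Gria4, Kcna2, Cacna2d2, Gabra4, Tac2 and Pnmt. Of the 6 such fits the number that passed was 2 for Lhx1 (highest adjusted p 0.22, without day 7 replicate 1), 1 for Dbx2 (highest adjusted p 0.12, without day 7 replicate 1), 2 for Lmx1b (highest adjusted p 0.14, without day 9 replicate 1) and 2 for Gabra3 (highest adjusted p 0.15, without day 7 replicate 1). It was 3 for Epha5 (highest adjusted p 0.21, without day 7 replicate 1), 3 for Ptprz1 (highest adjusted p 0.17, without day 7 replicate 1), 5 for Reln (highest adjusted p 0.081, without day 7 replicate 1) and 2 for Gpm6a (highest adjusted p 0.16, without day 7 replicate 1). It was 0 for Trh (highest adjusted p 0.18, without day 7 replicate 2) and 4 for Slc18a3 (highest adjusted p 0.091, without day 7 replicate 1).

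**Figure D3:**
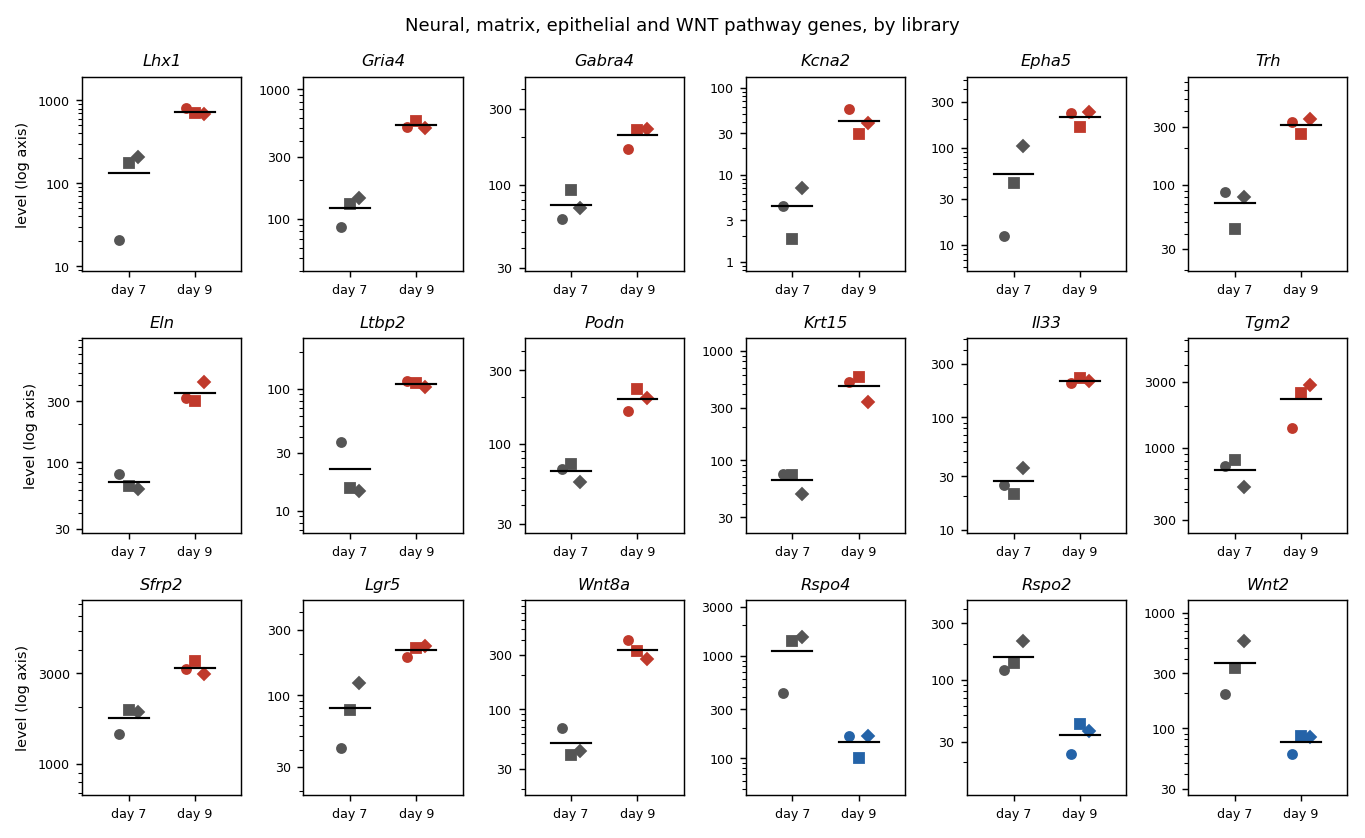
Level (log axis) of 18 neural, matrix, epithelial and WNT pathway genes at day 7 (grey) and day 9 (red where higher, blue where lower), 1 point per library (circle, square and diamond for replicates 1, 2 and 3) and a bar at the arithmetic mean. The day 9 points lie above the day 7 points in 15 panels, and below them for Rspo4, Rspo2 and Wnt2.

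Single genes of elastic matrix and of epithelium rose, while few members of the matrix, collagen and epithelial lists passed. Eln, which encodes elastin (chr5:134702593-134747323), had levels of 81.2, 65.2 and 61.1 at day 7 and 321, 302 and 424 at day 9, 5.04-fold higher in the mean and with no overlap. Its log2 change was 2.31 ± 0.32 (SE), with an adjusted p of 3.4e-05. Ltbp2, a microfibril-associated protein of elastic matrix, rose from 36.7, 15.3 and 14.6 to 117, 111 and 103 (log2 change 2.39, adjusted p 0.038). Fbln1, fibulin 1, rose by 0.66 and Col27a1, a fibrillar collagen, by 0.72 on the log2 scale, while Lama2, a laminin chain of muscle basement membrane, fell from 123, 146 and 179 to 61.2, 56.9 and 47.0. In the matrix glycoprotein list 2 rose and 1 fell of 34 (median -0.23), and in the collagen list 1 rose of 24 (median -0.12), against 2.40% risen and 1.60% fallen of all genes. Without replicate 1 of day 7, 1 rose and 0 fell in the matrix glycoprotein list. Without replicate 1 of day 9 the medians were -0.11 and 0.03. Postn, periostin of mesenchyme, was not called, with levels of 776, 979 and 756 at day 7 and 165, 355 and 403 at day 9 (adjusted p 0.54, or 0.044 with the block). Krt15, a keratin of basal epithelium, had levels of 75.2, 72.9 and 48.9 at day 7 and 515, 573 and 339 at day 9, and the groups did not overlap (log2 change 2.83 ± 0.58 (SE), adjusted p 0.0032). Krt8, a keratin of simple epithelium, fell from 1849, 2784 and 1993 to 795, 1297 and 1233 (1.99-fold lower in the mean, adjusted p 0.0026). Il33, a cytokine stored in nuclei of barrier cells, had levels of 24.8, 21.0 and 35.2 at day 7 and 204, 225 and 210 at day 9 (log2 change 2.96, adjusted p 2.3e-05). Tgm2, a transglutaminase that crosslinks matrix, rose from 732, 818 and 522 to 1388, 2498 and 2849 (adjusted p 0.013). Of the listed surface ectoderm and epithelial genes, 0 of 22 rose and 1 fell, Krt8 (median -0.16, or 0.12 without replicate 1 of day 7). Of 17 keratins, counted by symbol after the values were seen, 1 rose and 1 fell, 3 had day 9 libraries wholly above and 5 wholly below day 7, and the median was -0.51. Over all genes the shares were 2.40% risen, 1.60% fallen, 11.3% wholly above and 12.4% wholly below. Each of the 6 fits with 1 library left out kept an adjusted p under 0.05 for Eln, Krt15, Krt8, Il33 and Col27a1. The number of these 6 fits that passed was 1 for Ltbp2 (highest adjusted p 0.12, without day 7 replicate 2), 4 for Fbln1 (highest adjusted p 0.084, without day 7 replicate 1), 0 for Lama2 (highest adjusted p 0.11, without day 9 replicate 3) and 3 for Tgm2 (highest adjusted p 0.081, without day 9 replicate 3).

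WNT pathway genes moved in both directions. R-spondins are secreted proteins that strengthen WNT signals through Lgr receptors. Rspo4 (chr2:151842927-151874668) had levels of 434, 1384 and 1529 at day 7 and 165, 101 and 164 at day 9, 7.79-fold lower in the mean (log2 change -2.79 ± 0.40 (SE), adjusted p 6.1e-05), and replicate 1 of day 7 was the lowest of its group but above every day 9 library. Rspo2 fell from 120, 140 and 212 to 23.7, 42.5 and 36.7 (log2 change -2.16, adjusted p 0.018). Among 17 WNT ligands in the list 0 rose and 1 fell, Wnt2 (against 2.40% and 1.60% of all genes). Wnt2 had levels of 198, 331 and 574 at day 7 and 59.5, 85.4 and 83.7 at day 9 (log2 change -2.14, adjusted p 0.023). Wnt8a, a ligand of early posterior mesoderm that stood outside the list, rose from 67.6, 39.8 and 43.0 to 402, 321 and 275 (log2 change 2.73, adjusted p 0.040). Of 20 WNT targets and antagonists 3 rose and 0 fell (against 2.40% and 1.60% of all genes), with a median of 0.36. Without replicate 1 of day 7, 0 rose and the median was 0.16. They were the secreted antagonist Sfrp2 (log2 change 0.89, from 1436, 1915 and 1878 to 3179, 3496 and 2971), the R-spondin receptor Lgr5 (log2 change 1.52, from 40.8, 78.0 and 122 to 191, 222 and 226) and the feedback inhibitor Nkd2 (log2 change 0.76, from 176, 225 and 297 to 427, 336 and 402). None of the 3 had overlapping groups, and with the block the adjusted p was 0.026, 0.051 and 0.099. Jag2, a Notch ligand, rose by 0.65 and Fgf13, an intracellular FGF family member, by 1.17 on the log2 scale, with adjusted p-values of 0.035 and 0.086 with the block. The 6 fits that each left out 1 library all kept an adjusted p under 0.05 for Rspo4 and Jag2. Among the 6 leave-out fits the number that passed was 4 for Rspo2 (highest adjusted p 0.10, without day 9 replicate 1), 1 for Wnt2 (highest adjusted p 0.12, without day 7 replicate 3), 0 for Wnt8a (highest adjusted p 0.14, without day 9 replicate 1) and 5 for Sfrp2 (highest adjusted p 0.069, without day 7 replicate 1). It was 1 for Lgr5 (highest adjusted p 0.28, without day 7 replicate 1), 5 for Nkd2 (highest adjusted p 0.068, without day 7 replicate 1) and 5 for Fgf13 (highest adjusted p 0.069, without day 7 replicate 1).

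Other lists had few or no called members. Of the Hox genes 0 of 15 in paralogue groups 1 to 5, 0 of 12 in groups 6 to 9 and 0 of 7 in groups 10 to 13 passed, and so did 0 of 17 BMP target genes, 0 of 16 paraxial mesoderm genes, 0 of 16 mesenchymal genes and 0 of 17 pluripotency genes. An unadjusted p under 0.05 in limma's test was found for 0, 2 and 3 genes of these Hox groups, for 0 BMP target, 4 paraxial mesoderm, 2 mesenchymal and 3 pluripotency genes. The block passed 0 Hox genes, 3 BMP target genes, 3 mesenchymal genes and 2 genes of each of the paraxial mesoderm and pluripotency lists. Of all 11220 genes, 4.00% were called, 1906 had an unadjusted p under 0.05 and 3.69% passed with the block. At the share called, a list of this size can hold no called gene without differing from all genes. Hoxb9 had levels of 647, 3077 and 5485 at day 7 and 4889, 5292 and 6098 at day 9, with an adjusted p of 0.34. Id1, a direct BMP target, had levels of 1582, 2507 and 2729 at day 7 and 1763, 2329 and 2305 at day 9, with overlapping groups. In the p53 target list 2 of 15 rose (against 2.40% of all genes), or 1 without replicate 1 of day 7, the cell cycle inhibitor Cdkn1a (log2 change 0.44) and the cyclin G gene Ccng1 (log2 change 0.51), with block p-values of 0.076 and 0.046 after adjustment. In the antigen presentation list 2 of 19 rose (against 2.40%), or 0 without replicate 1 of day 7, H2-K1, a class I molecule (log2 change 0.83, adjusted p 0.044, or 0.091 with the block), and Tap1, a peptide transporter (log2 change 0.74). The proliferation marker Mki67 had levels of 11441, 9894 and 11500 at day 7 and 10801, 12342 and 8389 at day 9, with overlapping groups and a log2 change of -0.07. Sox8, a factor of neural crest and glia, fell from 132, 200 and 126 to 63.4, 67.3 and 78.6 (adjusted p 3.5e-04, or 0.071 with the block). Of the 841 genes in the 46 lists, 761 were in the table and 49 were called, against 4.00% of all genes. Leaving out each of the 6 libraries in turn kept an adjusted p under 0.05 for Ccng1 and Sox8. Of the 6 such fits the number that passed was 2 for Cdkn1a (highest adjusted p 0.16, without day 9 replicate 2), 1 for H2-K1 (highest adjusted p 0.30, without day 7 replicate 1) and 4 for Tap1 (highest adjusted p 0.080, without day 7 replicate 1).

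**Figure D4:**
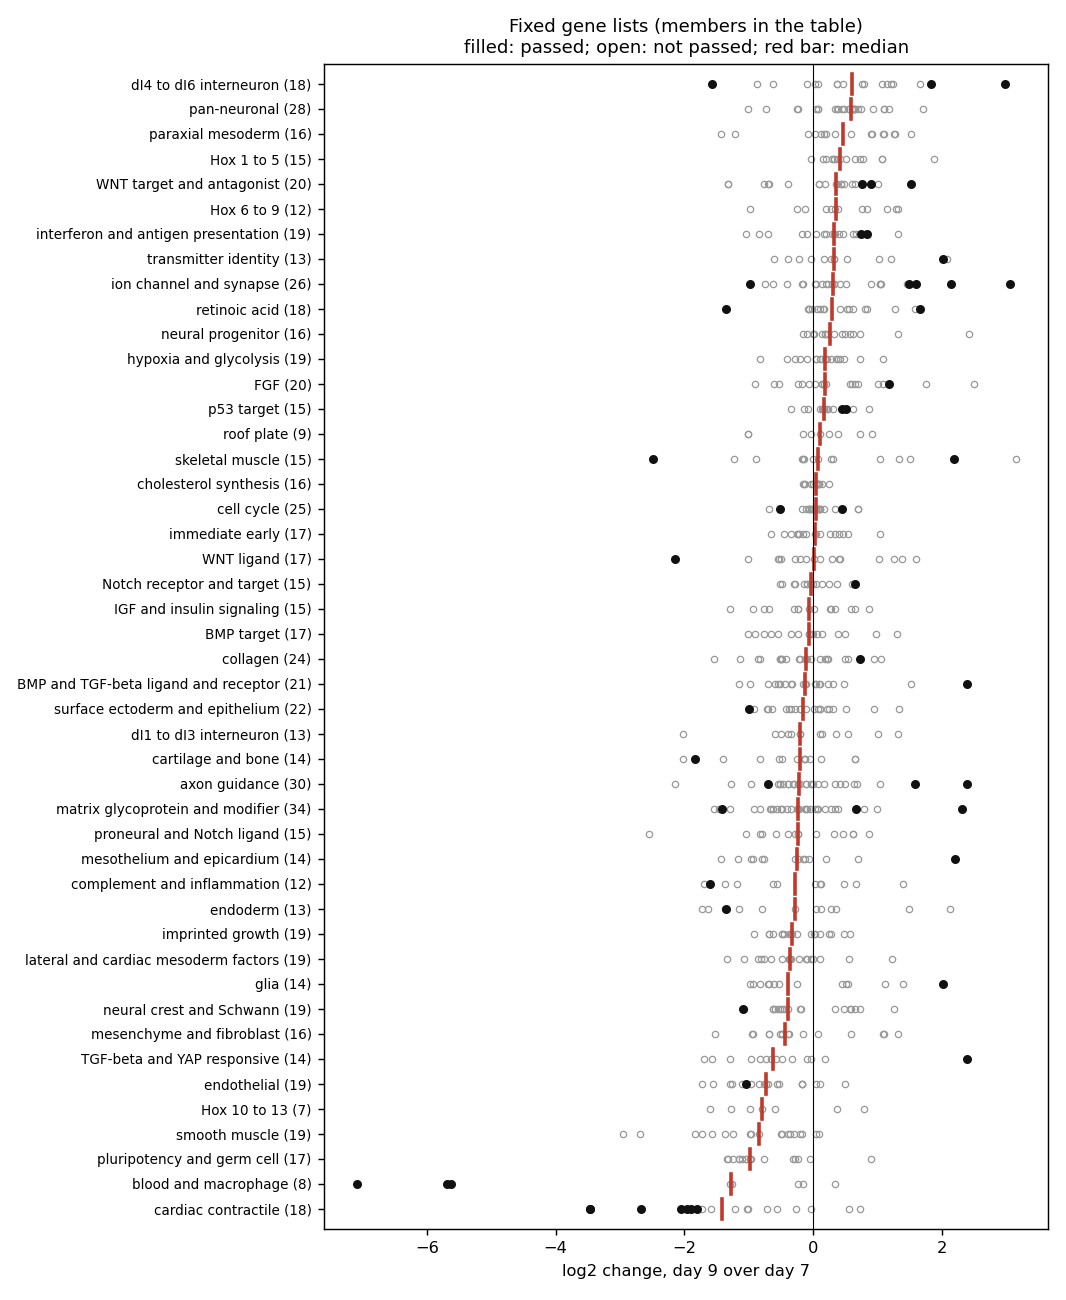
Log2 change from day 7 to day 9 (horizontal axis) of each member of 46 gene lists (rows, with the number of members in the table), ordered by the median (red bar). Filled points passed the test and open points did not. The cardiac contractile list has a median of -1.41 and the dI4 to dI6 interneuron list one of 0.60, or -1.32 and 0.27 without replicate 1 of day 7, when the order of the lists differs. The 3 globins lie apart at the far left.

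The change over the same 2 days was then set against that after RA alone and after sequential BMP4, by testing the difference of the log2 changes. RA alone gave 2274 called genes from day 7 to day 9 (20.3%) and sequential BMP4 gave 1596 (14.2%). The change after combined treatment differed from that after RA alone for 1334 genes (11.9%), 729 above it and 605 below, and from that after sequential BMP4 for 434 genes (3.87%), 283 above and 151 below. With the replicate block the first count was 711, 342 above and 369 below. Replicate numbers did not single out pairs after RA alone and were not checked for pairing between treatments, so this block may not follow real pairs. Both tests used the same M libraries, so they are not independent of each other.

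Cell cycle genes fell after the other treatments, 16 of 25 listed genes after RA alone (11.1% of all genes) and 10 after sequential BMP4 (8.13%). After combined treatment 1 rose, the cell cycle inhibitor Cdkn1a, and 1 fell, the cyclin gene Ccnd3 (2.40% and 1.60% of all genes). Without replicate 1 of day 7, 0 of the 25 rose and 0 fell after combined treatment. The change after combined treatment was above that after RA alone for 12 of the 25 (6.50% of all genes) and above that after sequential BMP4 for 7 (2.52%), and below for 0 in both. Top2a, the DNA topoisomerase of dividing cells, changed by 0.00 after combined treatment, -0.83 after RA alone and -0.78 after sequential BMP4 (adjusted p of the differences 0.0031 and 0.0099). Mki67 changed by -0.07, -1.10 and -0.74 (adjusted p 0.0071 and 0.12). The Mki67 levels at day 9 were 10801, 12342 and 8389 after combined treatment, 7465, 6311 and 5921 after RA alone and 9150, 4786 and 5718 after sequential BMP4. The lowest count with 1 library left out was 8 against RA alone, without R7 replicate 3, and 3 against sequential BMP4, without B7 replicate 2.

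Pluripotency genes rose after RA alone, 11 of the 17 listed (9.14% of all genes), and 0 of the 17 were called after combined treatment (4.00% of all genes). The difference from RA alone was below 0 for 11 (5.39% of all genes) and the median difference was -3.47. Pou5f1 changed by -0.97 after combined treatment, with an adjusted p of 0.55, and by 2.73 after RA alone (adjusted p of the difference 0.015). Leaving out M7 replicate 1, the library with the highest Pou5f1 of its group, left 5 of the 17 past the threshold. The difference from sequential BMP4 was past the threshold for 0 of the 17, against 3.87% of all genes.

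Of 17 immediate early genes, which respond rapidly to growth factors and stress, 0 were called after combined treatment (2 at an unadjusted p under 0.05, 1 with the block), while 6 rose after RA alone (9.14% of all genes) and 6 after sequential BMP4 (6.10%). After combined treatment 4.00% of all genes were called, and 3.69% with the block. Fos, a subunit of the AP-1 factor, had levels of 37.6, 62.5 and 61.8 at day 7 and 39.2, 54.1 and 74.9 at day 9 there, and went from 70.3, 67.1 and 92.8 to 1704, 1448 and 1816 after sequential BMP4 and from 116, 191 and 43.2 to 2531, 1496 and 895 after RA alone. The M groups overlapped while the B and R groups did not. Its log2 changes were 0.04, 4.42 and 3.91 (adjusted p of the differences 0.0051 from sequential BMP4 and 0.0065 from RA alone). In all, the difference was below 0 for 6 genes against sequential BMP4 (1.35% of all genes), or 3 without B7 replicate 2, and for 5 against RA alone (5.39%).

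The changes of Hba-x and Myl4 lay below those after both other treatments, and those of some endothelial genes below that after RA alone. Hba-x changed by -7.08 against -0.56 after RA alone and -1.65 after sequential BMP4 (adjusted p of the differences 0.0017 and 0.015). Its mean level at day 7 was 676 after combined treatment, 2.79 after RA alone and 8.53 after sequential BMP4. After the other treatments Hba-x therefore had little room to fall. Without M7 replicate 2 the difference from sequential BMP4 had an adjusted p of 0.062. Myl4 changed by -3.46 against -0.30 and 0.61 (adjusted p 0.0094 and 0.0032). Of 18 heart muscle genes 3 had a change below that after RA alone (5.39% of all genes) and 2 below that after sequential BMP4 (1.35%), or 2 without M7 replicate 1 and 1 without B7 replicate 2. Of 19 endothelial genes 7 had a change below that after RA alone, or 4 without M9 replicate 2, with a median difference of -1.57 (5.39% of all genes lay below), and 0 differed from sequential BMP4. Pecam1, an adhesion molecule of endothelium, changed by -0.97 after combined treatment and by 2.11 after RA alone (adjusted p of the difference 0.0072). Of 19 smooth muscle genes 0 differed from RA alone or from sequential BMP4 (11.9% and 3.87% of all genes did). Acta2 changed by -2.96, -2.27 and -1.51 after combined treatment, RA alone and sequential BMP4.

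Among the genes that rose, Gria4 changed by 2.14 against 0.72 after RA alone and 0.42 after sequential BMP4, and both differences passed (adjusted p 0.0072 and 0.0036). Gabra4 changed by 1.44 against 0.49 and 1.16, and neither difference passed (adjusted p 0.064 and 0.71). Of the 26 ion channel and synapse genes, 4 rose after combined treatment, 6 after RA alone and 7 after sequential BMP4. The risen shares over all genes were 2.40%, 9.14% and 6.10%. Kcna2 and Il33 changed in the same direction after each treatment, by 3.06, 2.20 and 2.45 for Kcna2, and no difference passed for either gene. Lhx1 changed by 0.74 after RA alone and 1.56 after sequential BMP4, and the differences from 2.97 did not pass (adjusted p 0.18 and 0.51). Eln changed by 1.14 after RA alone and by 1.60 after sequential BMP4, and neither difference passed (adjusted p 0.089 and 0.41).

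**Figure D5:**
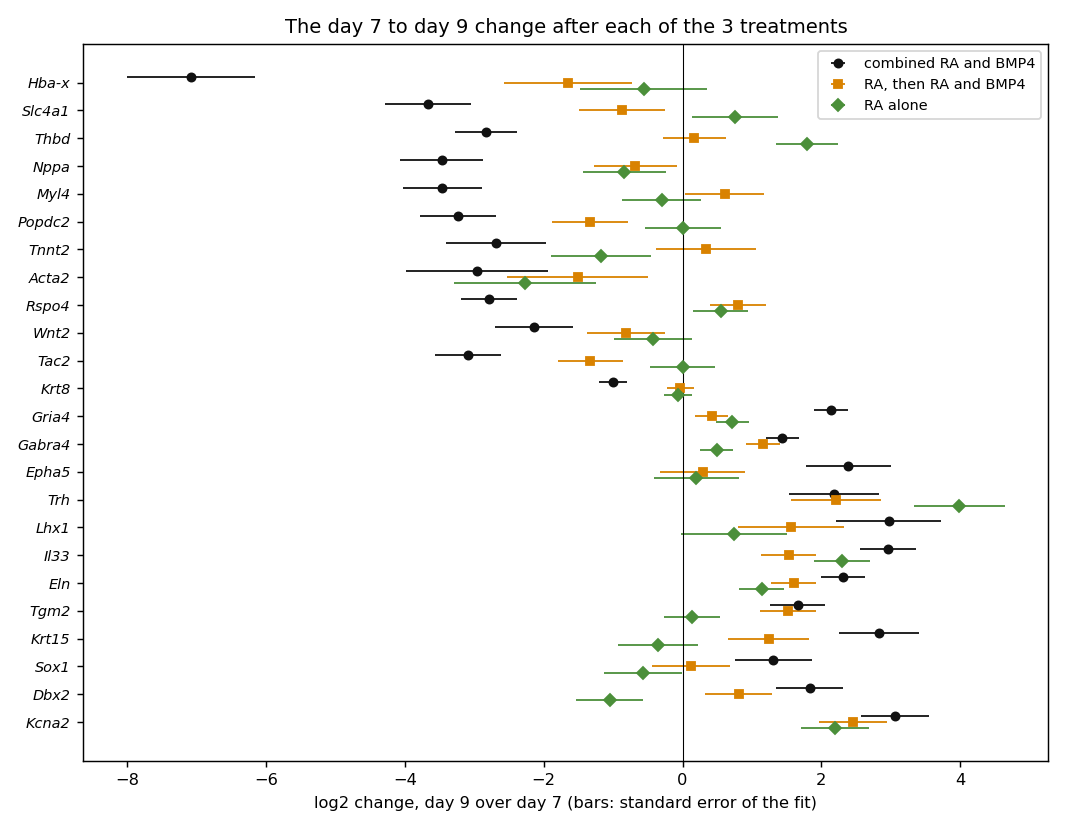
Log2 change from day 7 to day 9 (horizontal axis) of 24 genes after combined treatment (black circles), sequential BMP4 (orange squares) and RA alone (green diamonds), with bars for the standard error of the fit. Hba-x, Myl4 and Rspo4 lie far to the left after combined treatment and near 0 or above after RA alone, while Trh, Il33 and Kcna2 lie to the right after all 3.

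Levels at earlier times are given side by side, since the change from day 5 to day 7 shares the day 7 libraries with the change described here. Nppa was at 1.57, 4.78 and 4.39 at day 5, 73.0, 62.5 and 87.5 at day 7 and 4.84, 7.22 and 5.39 at day 9, so that day 7 was the highest of the 3 days. Myh11 followed the same order, at 28.0, 20.1 and 8.79, 531, 312 and 393 and 92.1, 146 and 103. Hba-x was at 91.3, 119 and 45.1 at day 5, above every day 9 library and overlapping day 7. Lhx1 was at 1576, 252 and 89.0 at day 3, 1762, 365 and 1486 at day 4 and 61.7, 158 and 316 at day 5, so that its day 9 levels lay within the range of earlier days. Gria4 was at 846, 798 and 938 at day 3 and 71.6, 92.8 and 103 at day 5. Wnt8a was at 3765, 389 and 402 at day 3, overlapping its day 9 levels, and at 13.6, 11.6 and 16.6 at day 5. Rspo4 was at 286, 468 and 658 at day 5, below replicates 2 and 3 of day 7 and above every library of day 9.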

How the data were processed

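Per the labels' protocols, a NuGEN kit for mRNA was used and reads came from a NovaSeq. The submitters' processing notes name Picard, edgeR and the build mm10 without a role. Aligner, gene counter and gene models count as not given in the sources used here. In all, the authors deposited 1 table of 11220 genes with a normalized signal (level) per gene and library. These are not counts: 0 values were 0 and 1 was whole, with no tolerance, so whole reads could not be recovered. The p-value columns deposited by the authors match their false discovery rates when 16014 genes are taken as tested, and all 11220 genes have a rate under 0.1 in at least 1 of 12 deposited comparisons, which do not include day 9 against day 7 of the combined arm. Calls therefore do not cover the transcriptome.

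Levels were taken as log2(level + 1) and fitted with limma 3.58.1 in R 4.3.3 (robust empirical Bayes with a trend, 1 coefficient for each group, all 45 libraries in 1 fit), with Benjamini-Hochberg adjustment over all genes. A filter of level 1 in 3 libraries removed no gene. Exact permutation of 3 against 3 cannot go below 0.1 and was not used. Nothing ties a sample to one of the 3 differentiations in the labels, so p-values measure the spread between these cultures. Replicate numbers were tested for pairing: deviations from the group mean correlated at 0.25, 0.28 and 0.27 between same-numbered day 7 and day 9 libraries and at -0.18 to -0.08 between different numbers. Each same-number value was above 0.1, so the numbers were taken to pair these libraries, from the data. RA alone also met this rule (0.51, 0.32 and 0.74), but its different numbers correlated at -0.63 to 0.50. The 0.50, between replicate 2 of day 7 and replicate 1 of day 9, was above the same-number value of 0.32. The numbers therefore did not single out pairs after RA alone. Sequential BMP4 did not meet the rule (-0.34, 0.12 and -0.39). Replicate numbers were not checked for pairing between treatments.

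The groups, gene lists and named genes were chosen with earlier results of these data known. Among called genes with groups that did not overlap and a higher mean of at least 50, up to 20 risen and 20 fallen were named by size of change. Also named were list members called, fixed markers, and up to 6 genes on each side of each difference of changes. Not every gene so named is described, and a few called genes are not reported here. Myh11, Actg2, Cnn1, Myl9, Gata4, Hand1, Postn, Stab2, Gpr182, Srf and the gene families were named after their values were seen. Date-like symbols (22) were restored for 19 genes by Ensembl identifier. Gene coordinates are from GENCODE M21 and promoters from RefSeq. Scripts were tested on simulated data. Alternatives were quantile normalization, the replicate block, fits to the 6 libraries only, fits without each library, no filter, pseudocounts of 0.1 or 5, a mean level of at least 10, array weights, adjustment over 16014 genes and a threshold of 0.01. Python 3.11.15, pandas 2.3.3 and matplotlib 3.10.9 were used.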

Additional observations from a re-analysis of the deposited data

Results flagged for a closer look

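The day 7 to day 9 change after combined treatment differed from that after RA alone for 1334 genes and from that after sequential BMP4 for 434 genes, by the limma test of the difference of log2 changes. Of the called genes with a mean level of at least 50 in any of the 4 groups, the 6 with the largest difference on each side are given. A value above 0 means that the change after combined treatment was the higher one. Above the change after RA alone, the differences were 3.97 for Hes3, a Notch effector of progenitors (2.41 against -1.56), 3.62 for Calb1, calbindin (0.54 against -3.08) and 3.45 for Hoxd3os1, an antisense RNA at Hoxd3 (0.27 against -3.18). Further differences of this sign were 3.18 for Krt15 (2.83 against -0.35), 2.87 for Dbx2 (1.83 against -1.05) and 2.84 for Drd2, a dopamine receptor (0.99 against -1.85). Mean M7 and M9 levels were low for Hoxd3os1 (4.16 and 4.44), Dbx2 (2.35 and 10.2) and Drd2 (3.84 and 8.37). Below the change after RA alone, the differences were -6.52 for Hba-x (-7.08 against -0.56), -5.23 for Hbb-y (-5.68 against -0.45) and -5.15 for Hbb-bh1 (-5.63 against -0.48). Further differences of this sign were -4.62 for Thbd (-2.83 against 1.79), -4.42 for Slc4a1 (-3.67 against 0.75) and -4.36 for Nell1, a secreted growth factor of bone (-1.94 against 2.42). Mean R7 and R9 levels were low for Hba-x (2.79 and 1.21), Hbb-y (1.80 and 0.963), Hbb-bh1 (2.66 and 1.80) and Slc4a1 (2.55 and 6.49). Of 12 fits with 1 library left out, fewer than 12 passed for these genes against RA alone: 6 for Hes3 (highest adjusted p 0.087, without R7 replicate 3), 3 for Calb1 (highest adjusted p 0.11, without M7 replicate 1) and 11 for Nell1 (highest adjusted p 0.064, without R7 replicate 3). With the replicate block in the compared libraries the adjusted p was 0.10 for Calb1, 0.056 for Hoxd3os1, 0.072 for Hbb-y and 0.085 for Slc4a1, outside the threshold. Replicate numbers did not single out pairs after RA alone, so this block may not follow real pairs. Above the change after sequential BMP4, the differences were 3.18 for Isl2, a LIM homeodomain factor of motor and sensory neurons (0.25 against -2.93), 2.82 for Pou4f3, a POU factor of sensory neurons (0.38 against -2.43) and 2.78 for Scn9a, a sodium channel of sensory neurons (0.51 against -2.27). Further differences of this sign were 2.77 for Kcnh1, a potassium channel (-0.19 against -2.95), 2.75 for Il6ra, the IL-6 receptor (0.89 against -1.86) and 2.70 for Serpinb8, a protease inhibitor (0.49 against -2.21). Mean M7 and M9 levels were low for Pou4f3 (4.46 and 5.75) and Serpinb8 (8.59 and 12.2). Below the change after sequential BMP4, the differences were -5.43 for Hba-x (-7.08 against -1.65), -4.54 for Mab21l2, a patterning gene (-1.19 against 3.35) and -4.38 for Fos (0.04 against 4.42). Further differences of this sign were -4.23 for Hbb-y (-5.68 against -1.44), -4.06 for Myl4 (-3.46 against 0.61) and -3.65 for Egr1, an immediate early zinc finger factor (0.46 against 4.11). Mean B7 and B9 levels were low for Hba-x (8.53 and 1.82) and Hbb-y (8.04 and 1.92). Of 12 fits with 1 library left out, fewer than 12 passed for these genes against sequential BMP4: 7 for Isl2 (highest adjusted p 0.073, without M7 replicate 1), 5 for Il6ra (highest adjusted p 0.092, without B9 replicate 2), 6 for Serpinb8 (highest adjusted p 0.061, without M9 replicate 1) and 10 for Hba-x (highest adjusted p 0.062, without M7 replicate 2). The number was 8 for Mab21l2 (highest adjusted p 0.061, without M9 replicate 1), 3 for Hbb-y (highest adjusted p 0.15, without M7 replicate 2) and 3 for Egr1 (highest adjusted p 0.098, without B9 replicate 3).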

How the results depend on the processing

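Of 109 genes named or looked up (104 where a mean level of at least 10 was required), none changed direction under any alternative. Of 8 further genes described as not called, 4 changed sign when 1 library was left out: Id1 (-0.31 to 0.09), Mki67 (-0.20 to 0.08), Fos (-0.19 to 0.27) and Top2a (-0.05 to 0.10 on the log2 scale). The 449 genes called at day 9 against day 7 became 168 with the 6 libraries alone, 1849 with array weights and 161 at a threshold of 0.01. They were 414 with the replicate block in the 6 libraries and 436 with it in all libraries. Leaving out 1 library at a time gave 193 to 371. The 1334 genes whose change differed from that after RA alone became 711 with the replicate block in the compared libraries, 3777 with array weights and 484 at 0.01, and 730 to 1294 with 1 library left out. The block behind the 711 used replicate numbers that did not single out pairs after RA alone. The 434 that differed from sequential BMP4 became 3141 with array weights and 119 at 0.01, and 180 to 473 with 1 library left out. They were 516 with the replicate block in the compared libraries, where sequential BMP4 numbers did not meet the pairing rule. The cause of these shifts was not tested. The risen share was 59.9% of called genes in the main fit, 45.2% with the 6 libraries alone, 44.9% with the replicate block there and 49.5% with array weights. Of the 109 genes named or looked up, 50 lost their call with the 6 libraries alone and 25 with the replicate block there. The number was 13 with adjustment over 16014 genes and 7 with quantile normalization. Of all 449 called genes, only 107 were also called with the 6 libraries alone and 195 with the replicate block there. The read depth is unknown, so no floor for low levels can be given, and levels near 1 may not be distinguishable from background. Unadjusted and adjusted values alike cover a table selected by the authors' tests.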

Other observations

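Several further genes that the report does not describe changed. Nr1h5, a nuclear receptor gene, had levels of 62.7, 129 and 75.8 at day 7 and 6.66, 16.2 and 7.98 at day 9, and its groups did not overlap (log2 change -3.02, adjusted p 1.3e-06). Vwc2, a secreted BMP antagonist, rose from 9.64, 6.31 and 7.84 to 79.6, 75.3 and 52.0 (log2 change 2.96, adjusted p 9.5e-06). Hsd3b6, a steroid-forming dehydrogenase, fell from 53.3, 52.5 and 52.3 to 12.1, 20.9 and 3.08 (log2 change -2.35, adjusted p 0.0056, or 0.068 with the replicate block). Megf10, a receptor of muscle satellite cells and glia, fell from 240, 253 and 288 to 42.9, 75.1 and 53.6 (log2 change -2.20). C3, a complement component, fell from 36.6, 46.3 and 35.1 to 11.5, 13.5 and 11.6 (log2 change -1.61). Sema3e, a guidance ligand, rose from 681, 861 and 376 to 1754, 1886 and 1780 (log2 change 1.58, adjusted p 4.0e-04), while Epha4, an ephrin receptor, fell from 2940, 2401 and 3091 to 1825, 1637 and 1699 (log2 change -0.70). Each of the 6 fits with 1 library left out kept an adjusted p under 0.05 for Nr1h5, Vwc2 and Sema3e. The number of these 6 fits that passed was 5 for Hsd3b6 (highest adjusted p 0.084, without day 9 replicate 3), 0 for Megf10 (highest adjusted p 0.15, without day 9 replicate 1), 0 for C3 (highest adjusted p 0.14, without day 9 replicate 1) and 1 for Epha4 (highest adjusted p 0.10, without day 7 replicate 1).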
